A study of Mus musculus with 82 samples.

Results

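Skin biopsied at hour 2 (h2) after 1 Gy of whole-body X-rays was compared with skin biopsied at the same hour after sham treatment (0 Gy). The comparison holds the 8 arrays whose labels give both that time and 1 of those doses, out of 82 arrays from 24 mice. They are 4 sham arrays (mice M001, M002, M004 and M005) and 4 arrays after 1 Gy (mice M006, M007, M009 and M010), and the choice used the labels only. All mice were male C57BL/6j. Each gave 1 biopsy at h2, and the same mice were biopsied again on later days. The labels used here do not give their age. RNA of each biopsy was labelled with Cy5 and hybridized with Agilent's Universal Mouse Reference RNA, a pool labelled with Cy3, on an Agilent whole-genome mouse array. Dyes were not swapped. The question is which genes had changed in skin this soon after a dose that the mice survived.

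Ionizing radiation breaks DNA. The kinase ATM senses the breaks and stabilizes p53, a transcription factor that raises genes of cell cycle arrest (Cdkn1a, Ccng1), apoptosis (Bax, Pmaip1, Fas), antioxidant defence (Sesn1) and its own inhibition (Mdm2). In skin, the dividing cells of the basal epidermis and of growing hair follicles are known as the most sensitive. Skin also holds a circadian clock and responds to glucocorticoids, the adrenal hormones released under stress.

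A value below is the log2 ratio of biopsy over reference RNA on 1 array, and a difference is the mean of the 4 arrays after 1 Gy minus the mean of the 4 sham arrays. Ratios were computed from the scanner intensities. The authors' own table of normalized log ratios for the same arrays is given beside them as deposited values. Its log base and steps of normalization are not stated. Per array its spread (SD 0.954 to 1.164) was close to that of the log2 ratios (1.02 to 1.14), its median lay between -0.0147 and 0.00086, and it correlated with them at r of 0.906 to 0.973 across probes, so that both run in the direction of biopsy over reference. A fold for a deposited value therefore rests on reading it as log2.

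Sham mice M001, M004 and M005 and irradiated mouse M010 were measured on scanner 1, and sham mouse M002 and irradiated mice M006, M007 and M009 on scanner 2. Dose and scanner were thus partly confounded, and a model with the scanner as a block is given where it matters. M002 and M009 shared a slide, as did M004 with M005 and M006 with M007. The median Cy5 intensity was between 48 and 97.5, 49.3% to 65.6% of probes lay well above background in Cy5, and no spot was saturated in Cy5. Sham mouse M002 stood apart. Its array correlated with the other 7 at r of 0.693 to 0.757 across probes, where each of the others had a partner at 0.949 to 0.975. It correlated with the others at 0.856 to 0.919 in the deposited values. The biopsies carried the markers of skin: all 7 markers of basal epidermis and all 9 of fibroblasts were well above background on all 8 arrays, as were 94.7% to 100% of the 19 markers of cornified epidermis tested and all 15 of skeletal muscle. Biopsies mix cell types, so fewer cells of a type and less RNA per cell cannot be told apart.

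Few probes passed the test in the scanner values. At 2-fold or more and an adjusted p (Benjamini-Hochberg) below 0.05 by limma, with all 82 arrays in 1 model, 4 of 30293 probes were higher after 1 Gy (0.0132%) and 2 were lower (0.0066%). At an unadjusted p under 0.05 and the same fold, 516 were higher and 211 lower. With the scanner as a block, no probe was called in either direction, and 133 were higher and 195 lower at an unadjusted p under 0.05. With the slide as a fixed block, 123 were called higher and 246 lower, and with the slide as a random block 9 and 39. The deposited values gave 131 probes higher (0.432%) and 16 lower (0.0528%) by the same rule, and 81 and 10 with the scanner as a block. Across all probes the differences from the 2 sets of values correlated at r = 0.626 and shared their sign in 67.3%.

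The counts in the scanner values depended on 1 step of the background correction. Fitted on every spot, that step inflated Cy5 on 4 of the 8 arrays (M002, M005, M009 and M010): the median corrected Cy5 intensity of M009 was 488.9, against 17.5 by plain subtraction. A few spots far below their local background caused this, 18 of them on M009, and once they were left out the median was 25.9. The planned setting kept every spot, and the change was made after its results had been seen. With every spot kept, no probe was called in either direction, and 157 were higher and 194 lower at an unadjusted p under 0.05 and 2-fold.

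The calls also depended on single arrays. In the scanner values, no probe was called without sham mouse M002, nor without irradiated mouse M006 or M007, and 233 higher and 133 lower were called without irradiated mouse M010. Of the 147 probes called in the deposited values, 21 were still called without M002 (14.3%), 24 without M009 (16.3%) and 1 without both (0.68%). The arrays of each scanner give a comparison of their own, and these share no array. M010 minus the 3 sham mice of scanner 1, and the 3 irradiated mice of scanner 2 minus M002, gave differences that correlated at r = 0.067 across probes, with the same sign in 50%. The deposited values gave a correlation of 0.349, with the same sign in 55.2%.

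**Figure D1:**
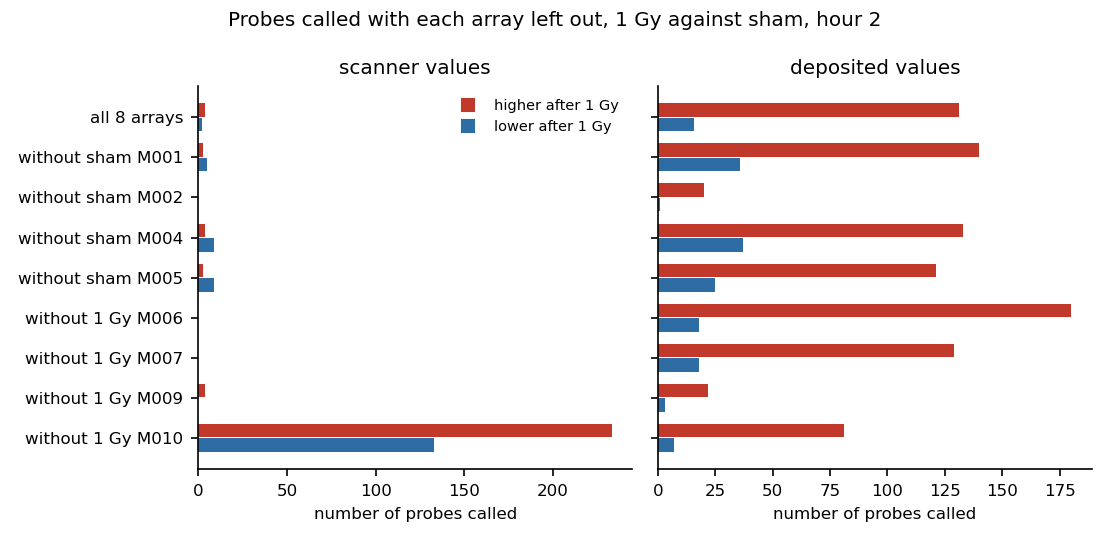
Number of probes called higher (red) or lower (blue) after 1 Gy (adjusted p under 0.05 and at least 2-fold) with all 8 arrays and with each array left out, in the scanner values (left) and the deposited values (right). The scanner values gave 4 higher and 2 lower with all arrays and 233 and 133 without irradiated mouse M010; the deposited values gave 131 and 16 with all arrays.

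The 6 probes called in the scanner values belonged to Slc25a33, Fkbp5 (2 probes), Lmod2, Enc1 and Bnc1. Slc25a33 encodes a mitochondrial carrier of pyrimidine nucleotides. Its log2 ratio was -1.14, -1.31, -1.22 and -1.18 in sham mice M001, M002, M004 and M005, and 0.56, 0.52, 0.75 and -0.18 in irradiated mice M006, M007, M009 and M010. All 4 irradiated mice lay above all 4 sham mice, which differed little from each other, and M010 was the lowest of the irradiated. The difference was 1.63 (SE 0.32, adjusted p = 0.0378 by limma), and it was called in 4 of the 8 fits that leave out 1 array. It was 1.00 on scanner 1 and 1.92 on scanner 2. With the scanner as a block it was 1.39 (adjusted p = 0.143), and in the deposited values 1.05 (SE 0.16, adjusted p = 8.13e-05), the smallest adjusted p of all probes there. There it was 1.01 without M002 (adjusted p = 0.00195) and 1.00 without M009 (adjusted p = 0.00211). The second Slc25a33 probe differed by 1.015 in the scanner values (adjusted p = 0.0737) and by 0.58 in the deposited ones (adjusted p = 0.00425). Neither was a call.

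Fkbp5, a co-chaperone of steroid receptors that glucocorticoids induce, was read by 3 probes that did not give 1 answer. On the called probe with the smallest adjusted p, the log2 ratio was -0.50, -0.60, -0.54 and -0.27 in the sham mice and 1.33, 0.57, 0.56 and -0.01 in the irradiated mice, in the same order. The groups did not overlap, and the difference was 1.09 (SE 0.21, adjusted p = 0.0378). This probe was well above background on all 4 irradiated arrays but on 1 of the 4 sham arrays, which limits that size. The other called probe differed by 1.5 (SE 0.32, adjusted p = 0.048). The brightest of the 3, which stands for the gene in the counts below, had 1.44, -0.28, 1.55 and 2.83 in sham and 1.61, 1.5, 1.83 and 2.66 after 1 Gy. Here the groups overlapped, M005 being the highest of all and M002 the lowest, and the difference was 0.51 (adjusted p = 0.618), or -0.04 without M002. In the deposited values the 3 probes, in this order, differed by 0.65, 0.93 and 1.16 (adjusted p = 0.00305, 0.00408 and 0.0284). Without M002 that last adjusted p was 0.2.

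Lmod2 encodes leiomodin, an actin nucleator of striated muscle. It measured 0.67, 0.67, 0.87 and 0.42 in sham and 3.48, 2.77, 1.65 and 2.01 after 1 Gy. The groups were apart by a wide margin against the spread of the sham mice, with a difference of 1.82 (SE 0.38, adjusted p = 0.0423), and of 1.2 in the deposited values (adjusted p = 0.00341). The difference was 1.35 on scanner 1 and 1.97 on scanner 2.

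Enc1, a kelch protein that binds actin, fell. It measured 0.08, 1.30, -0.32 and 0.35 in sham and -0.65, -1.21, -1.16 and -1.17 after 1 Gy, again without overlap, for a difference of -1.40 (SE 0.29, adjusted p = 0.0423). Its deposited difference was -0.98 (adjusted p = 0.00506), and its other probe gave -0.38 (adjusted p = 0.52). Bnc1, a zinc finger factor of basal keratinocytes, measured 0.16, 1.79, -0.19 and -0.73 in sham and -1.63, -1.65, -1.16 and -0.52 after 1 Gy. Its lowest sham mouse lay below its highest irradiated mouse, it was well above background on 1 of the 4 irradiated arrays, and the difference was -1.5 (SE 0.32, adjusted p = 0.048). Without M002, the differences were -1.08 for Enc1 (adjusted p = 0.15) and -0.99 for Bnc1 (adjusted p = 0.163).

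Next to these stood genes that did not pass the adjusted threshold in the scanner values. Pde4d, a phosphodiesterase that breaks down cAMP, had 0.31, -0.10, 0.56 and 0.38 in sham and 2.18, 1.49, 1.78 and 1.33 after 1 Gy. The groups did not overlap, the difference was 1.40 (SE 0.32, adjusted p = 0.0675), and in the deposited values it was 1.18 (adjusted p = 0.00306). Its 3 other probes gave 0.91, 0.34 and 0.07. Vcam1, the adhesion molecule by which endothelium holds leukocytes, differed by 1.21 (adjusted p = 0.0675), but by 0.16 in the deposited values. Further differences were 1.06 for the chaperone Dnajb4, 1.25 for the vasodilator peptide gene Adm, 1.36 for the mitochondrial kinase Pink1, 1.05 for Nampt, which makes an NAD precursor, and 1.17 for the mitochondrial carrier Slc25a25. Ip6k3, an inositol phosphate kinase of muscle, differed by 1.01 and was well above background on 2 of the 4 sham arrays. These 8 genes had adjusted p of 0.0675 to 0.115, and the groups overlapped for Adm only. Their deposited values gave Dnajb4, Ip6k3, Pink1 and Slc25a25 adjusted p of 0.00506, 0.0167, 0.0293 and 0.00349, and Adm and Nampt of 0.465 and 0.096. None of these was a call, since the deposited differences of Dnajb4, Ip6k3, Pink1 and Slc25a25 (0.74, 0.66, 0.85 and 0.97) were under 2-fold. Without M002 their adjusted p were 0.0635, 0.144, 0.221 and 0.0441.

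Other genes at lower values after 1 Gy did not pass the adjusted threshold in the scanner values. Ovol2, a repressor that keeps epithelial cells epithelial, measured 1.99, 1.88, 2.00 and 1.67 in sham and 0.79, 0.82, 0.56 and 1.28 after 1 Gy. The groups were apart and the sham mice were alike, with a difference of -1.02 (SE 0.24, adjusted p = 0.0834), where the deposited values gave -0.19 (adjusted p = 0.479). The other Ovol2 probe gave -0.29 in the scanner values. Dll1, a Notch ligand, differed by -1.08 (adjusted p = 0.117) in the scanner values and by -0.25 in the deposited ones. Cybrd1, a ferric reductase, had 3.17, 4.19, 2.94 and 2.56 in sham and 0.83, 1.5, 1.24 and 1.73 after 1 Gy. It did not overlap either, with a difference of -1.90 (SE 0.50, adjusted p = 0.129), and it fell by 1.04 in the deposited values (adjusted p = 0.035), though without M002 that adjusted p was 0.262. The other Cybrd1 probes gave -0.62 and -0.39 in the scanner values. Galnt14, Entpd3, Trim59, Creb3l4, Slc5a8 and the histone gene H2bu2 differed by -1.66, -1.47, -1.24, -1.03, -1.03 and -1.11, with adjusted p of 0.0755 to 0.117. M002 was the highest sham mouse for all 6, and Galnt14 was well above background on 1 of the 4 irradiated arrays and Slc5a8 on 2. Without M002 the differences were -0.98 for Galnt14, -0.998 for Entpd3, -0.84 for Trim59, -0.75 for Creb3l4, -0.47 for Slc5a8 and -0.53 for H2bu2 (adjusted p = 0.163 to 0.234).

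**Figure D2:**
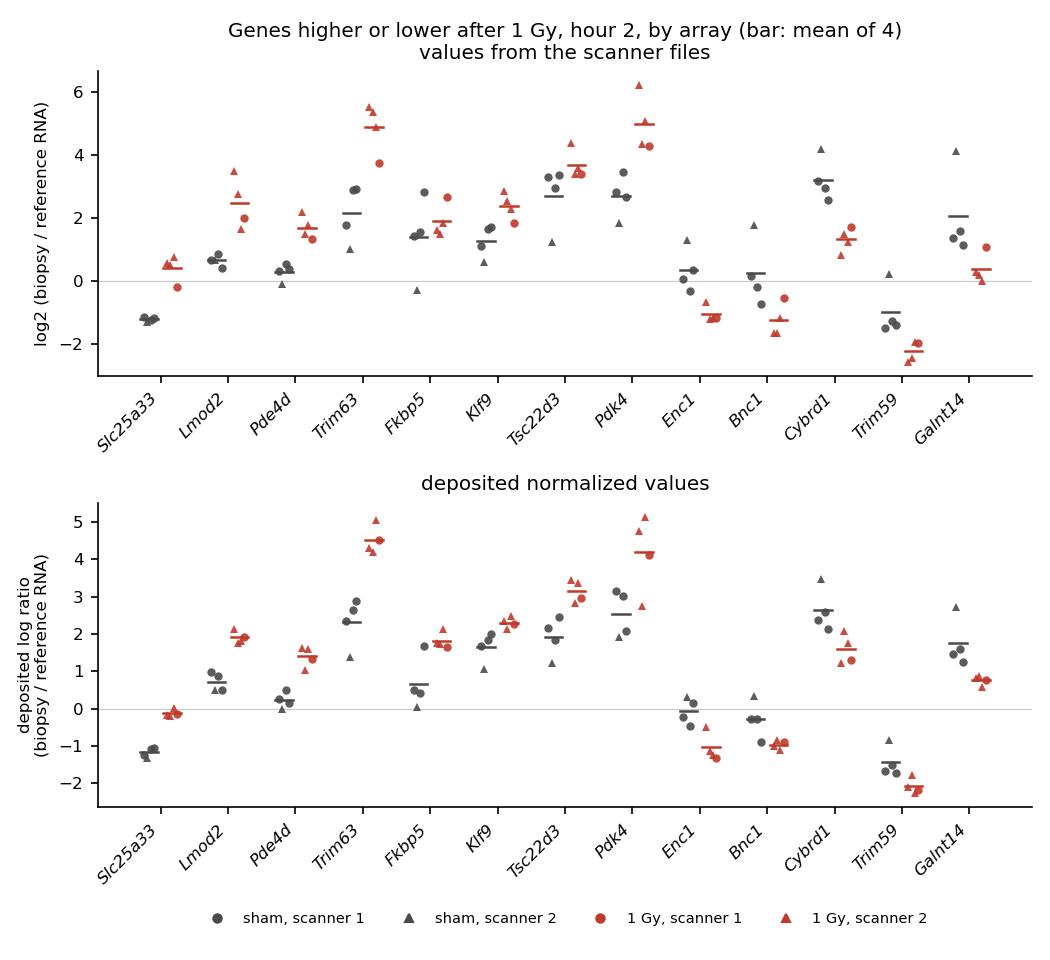
Log2 ratio of biopsy over reference RNA at h2 for 13 genes, from the scanner files (top), and the deposited log ratio (bottom). Each point is 1 mouse, in grey for sham and red for 1 Gy, with circles for scanner 1 and triangles for scanner 2, and each bar is the mean of 4. Slc25a33, Lmod2, Pde4d and Trim63 did not overlap between the groups in either set of values.

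With all 8 arrays, the p53 targets had a median difference close to that of all genes, with single members at higher values. The list holds 31 genes, and all were tested. Their median difference was -0.01, against 0.01 over all 15739 genes tested. Without M002 it was 0.13, against 0.01. At an unadjusted p under 0.05, 10 were higher and 2 lower, where 8.19% of all genes were higher and 7.4% lower. With the scanner as a block, 7 were higher and 0 lower, against 3.57% and 4.35% of all genes. None passed the adjusted threshold in either fit. With array weights, which gave M002 and M010 the least weight of the 8 arrays, 6 were called higher (Ccng1, Ddit4, Eda2r, Phlda3, Tigar and Trp53inp1) and 0 lower, against 4.7% and 2.54% of all genes. The estimation of these weights stopped before converging. Calls in that fit were not particular to p53 targets. Called higher were 7 of 10 adipocyte markers and 4 of 12 endothelium markers. Called lower were 7 of 16 genes of the study's GP6 (collagen receptor) list and 7 of 17 immediate early genes. None of these lists had a call the other way. The groups did not overlap for 2 members that were higher (Eda2r and Gdf15) and 1 that was lower (Xpc), against 3.96% and 3.09% of all genes. In the deposited values no member was called, where 0.623% of all genes were called higher and 0.0826% lower; 3 members were higher without overlap (Trp53inp1, Phlda3 and Sesn1) and 1 was lower (Bax), against 5.67% and 5.09% of all genes. The mean of the 31 genes was between -0.04 and 0.04 in the sham mice and between 0.06 and 0.24 in the irradiated mice.

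Promoter windows from RefSeq (mouse build GRCm38.p6) of 9 members hold a match to the decamer of the p53 response element, and 4 of them are shown. Cdkn1a holds 2 matches, of which 1 is marked. Each stretch is shown 5′ to 3′ on the strand of the gene, with the match in capitals. Ccng1 and Sesn1 were among the 10 higher members, and Cdkn1a and Mdm2, 2 textbook targets, were not.
Ccng1, chr11:40755437-40755496, minus strand: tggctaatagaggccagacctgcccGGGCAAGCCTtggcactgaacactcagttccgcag
Sesn1, chr10:41887241-41887300, plus strand: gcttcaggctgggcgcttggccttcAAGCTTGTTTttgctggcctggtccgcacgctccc
Cdkn1a, chr17:29090903-29090962, plus strand: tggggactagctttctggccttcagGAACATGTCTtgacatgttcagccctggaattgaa
Mdm2, chr10:117710910-117710969, minus strand: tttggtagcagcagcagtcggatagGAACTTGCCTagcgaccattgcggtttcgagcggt
The decamer was searched on both strands in windows from 250 bases before to 50 after the start of each gene, and overlaps with no other motif searched. Of 23 p53 targets with a window, 9 held it (39.1%), against 2582 of 27025 genes (9.55%). No match lay in the windows of Apaf1, Ddit4, Eda2r, Fas, Gdf15, Phlda3, Psrc1 and Tigar.

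Ccng1, cyclin G1, a p53 target that recruits a phosphatase to Mdm2, had the largest difference of the 31. It measured 0.42, -0.65, 1.18 and 0.44 in sham mice M001, M002, M004 and M005, and 2.23, 2.62, 1.49 and 1.16 in irradiated mice M006, M007, M009 and M010. M004 lay just above M010, and the other values did not overlap. The difference was 1.53 (SE 0.46, adjusted p = 0.177), and 1.32 with the scanner as a block. It was 0.48 on scanner 1, 2.76 on scanner 2 and 0.61 in the deposited values (adjusted p = 0.329), and its second probe gave 1.43.

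Eda2r, a receptor of the TNF family that p53 induces, had -0.09, -0.90, 0.01 and 0.10 in sham and 1.07, 2.82, 0.22 and 0.24 after 1 Gy. All irradiated mice were higher, but M009 and M010 only just, and 2 of the sham arrays were not well above background. The difference was 1.31 (SE 0.47, adjusted p = 0.228), and its 2 other probes gave 0.14 and 0.13. Gdf15, a stress cytokine, had -1.95, -2.37, -2.20 and -1.95 in sham and -0.62, -1.56, -1.53 and -1.78 after 1 Gy. The groups were apart, with a difference of 0.75 (SE 0.22, adjusted p = 0.169), but the deposited difference was 0.11 (adjusted p = 0.72).

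Trp53inp1, a nuclear protein that promotes the activity of p53, had 0.14, 2.13, 0.35 and 0.88 in sham and 1.94, 1.80, 2.38 and 1.65 after 1 Gy. M002 lay among the irradiated mice, and the other sham mice lay below all of them. The difference was 1.06 (SE 0.30, adjusted p = 0.154), and 1.48 without M002 (adjusted p = 0.0829). Trp53inp1 differed by 1.19 on scanner 1 and by -0.09 on scanner 2, so that its direction depended on the scanner. Its deposited difference was 0.68 without overlap (adjusted p = 0.0274), which is under the 2-fold limit. Its other probe gave -0.23 in the scanner values and 0.79 in the deposited ones (adjusted p = 0.0307), so the direction of that probe depended on the set of values.

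Phlda3, an inhibitor of Akt, had -0.33, 0.10, -0.29 and -0.34 in sham and 1.27, 0.83, 1.14 and -0.12 after 1 Gy. The 3 irradiated mice of scanner 2 were high, and M010 lay within the sham range; the difference was 0.99 (SE 0.37, adjusted p = 0.242), 0.53 with the scanner as a block and 0.46 without overlap in the deposited values (adjusted p = 0.117). Tigar, which lowers glycolysis, showed the same layout, with -0.78, -0.81, -0.77 and -0.64 in sham and 0.76, 0.45, 0.32 and -0.64 after 1 Gy, for a difference of 0.97 (SE 0.35, adjusted p = 0.232). Its deposited difference was 0.21 (adjusted p = 0.653), and there the groups overlapped. Ddit4, an inhibitor of mTOR that glucocorticoids also induce, had -1.97, -0.68, -0.30 and -1.15 in sham and 0.06, 0.13, 1.03 and -0.68 after 1 Gy. The groups overlapped, with a difference of 1.16 (adjusted p = 0.261) and a deposited difference of 0.91 (adjusted p = 0.0945).

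Sesn1 had 1.30, 1.15, 1.59 and 1.64 in sham and 1.84, 1.63, 2.21 and 1.77 after 1 Gy, so that M007 alone of the irradiated mice fell below the highest sham mouse. Its difference was 0.44 (SE 0.19, adjusted p = 0.296) in the scanner values and 0.44 without overlap in the deposited ones (adjusted p = 0.0449). The apoptosis genes Fas and Pmaip1 differed by 0.40 and 0.58 (adjusted p = 0.328 and 0.334). Fas differed by 0.20 without M002, by -0.15 on scanner 1 and by 1.1 on scanner 2, so that its direction depended on the scanner. Pmaip1 differed by 0.53 on scanner 1 and by -0.05 on scanner 2. Apaf1, the core of the apoptosome, and the spindle gene Psrc1 were the 2 lower members, at -0.65 and -0.68 (adjusted p = 0.266 and 0.307), and the 2 other Psrc1 probes gave -0.25 and 0.32. Psrc1 differed by 0.04 on scanner 1. Apaf1 was well above background on 2 of the 4 irradiated arrays.

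The 2 targets most used as readouts did not stand higher. Cdkn1a, which encodes p21, had 0.97, 1.16, 0.95 and 1.42 in sham and 0.63, -0.01, 0.03 and 1.42 after 1 Gy. The 3 irradiated mice of scanner 2 were below all sham mice and M010 was level with the highest of them, for a difference of -0.61 (adjusted p = 0.533) and of -0.40 in the deposited values (adjusted p = 0.268). Mdm2 had -0.76, -1.04, -0.98 and -0.99 in sham and -0.89, -1.30, -1.09 and -0.52 after 1 Gy, with the irradiated mice on both sides of the sham range and a difference of -0.01 (SE 0.19, adjusted p = 0.985). Bax differed by 0.19 in the scanner values (adjusted p = 0.682) and by -0.36 without overlap in the deposited ones (adjusted p = 0.0477), so that its direction depended on the set of values. Rrm2b was not well above background on any of the 8 arrays.

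**Figure D3:**
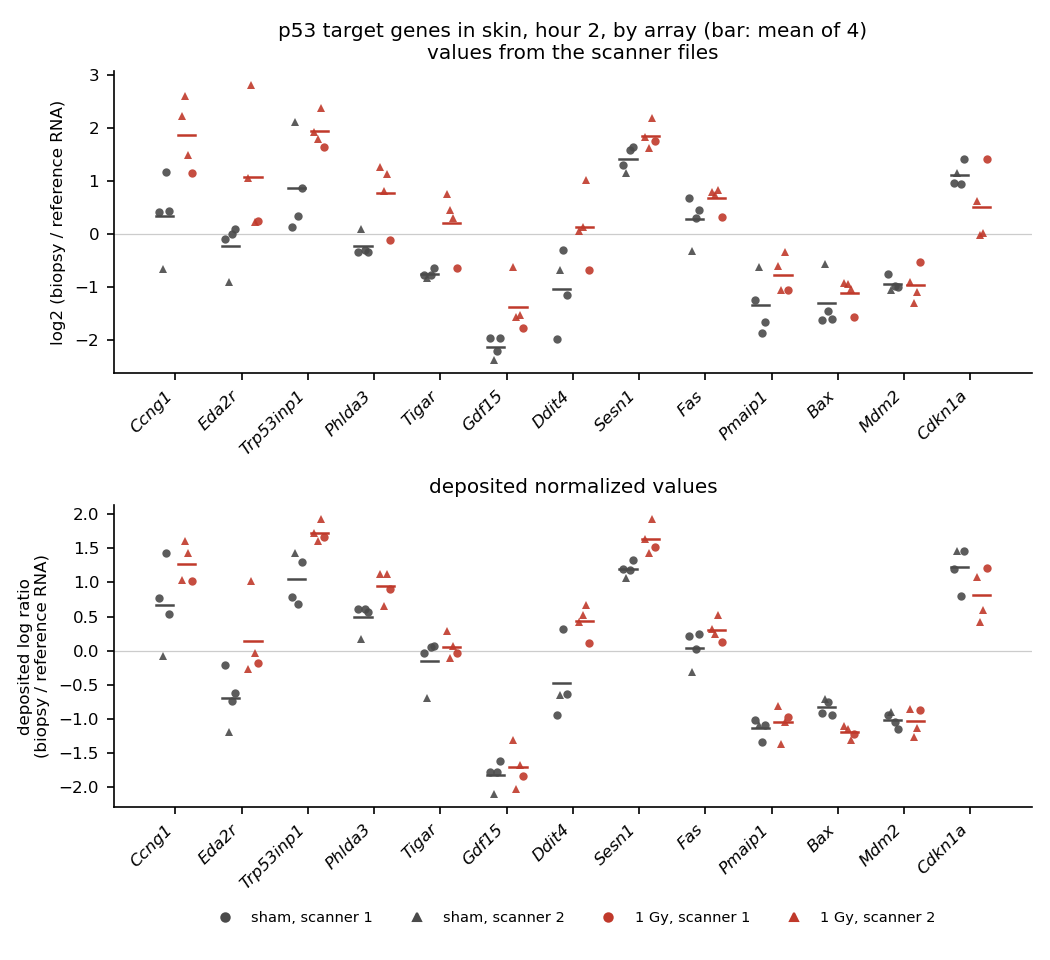
Log2 ratio of biopsy over reference RNA at h2 for 13 p53 targets, from the scanner files (top), and the deposited log ratio (bottom), with 1 point per mouse (grey for sham, red for 1 Gy, circles for scanner 1, triangles for scanner 2) and the mean of 4 as a bar. In the top panels Ccng1 was highest in M006 and M007, and Phlda3 and Tigar were high in 3 of 4 irradiated mice. The groups overlapped for Ccng1 and Tigar in the bottom panels, and mean Cdkn1a and Mdm2 were not higher after 1 Gy in either.

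Of the 17 genes of DNA damage signalling and repair, none was higher and 2 were lower at an unadjusted p under 0.05, where 8.19% of all genes were higher and 7.4% lower. The median was -0.07, and -0.20 without M009 and -0.00 without M002. These 2 were Trp53bp1, which marks breaks for end joining (-0.41, adjusted p = 0.259), and the repair scaffold Xrcc1 (-0.63, adjusted p = 0.283). The 20 genes of mitosis had a median of -0.17 in the scanner values, -0.22 with the scanner as a block and -0.15 in the deposited values, 17 of them were below 0, and none passed an unadjusted p of 0.05. Mki67, the proliferation marker, had -2.81, -1.90, -3.20 and -3.15 in sham and -3.74, -3.51, -3.25 and -2.91 after 1 Gy. The groups overlapped, and M002 was the highest of all 8. Without M002 the median of the mitosis genes was -0.08 in the scanner values and -0.03 in the deposited ones. It was 0.08 on scanner 1 and -0.60 on scanner 2 (deposited 0.08 and -0.41), so that its direction depended on the scanner. The 16 genes of DNA replication had a median of -0.07.

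The genes that glucocorticoids induce had a median above that of all genes in both sets of values. Of 9 genes, 8 were tested, and their median difference was 0.60 in the scanner values, 0.74 with the scanner as a block and 0.87 in the deposited values, against 0.01, 0.01 and -0.00 over all genes. At an unadjusted p under 0.05, 3 were higher and 0 lower, where 8.19% and 7.4% of all genes were, and none passed the adjusted threshold through its brightest probe. In the deposited values, 3 of the 8 were called higher (Fkbp5, Tsc22d3 and Per1), against 0.623% of all genes, and all 8 were above 0. The mean of the list was 0.78 to 2.31 in the sham mice and 2.39 to 2.91 in the irradiated mice, and 0.81 to 1.58 against 2.00 to 2.42 in the deposited values. Without M002 the median was 0.31 in the scanner values and 0.72 in the deposited ones, where none of the 3 was still called.

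Klf9, a transcription factor and early glucocorticoid target, had 1.1, 0.61, 1.64 and 1.70 in sham and 2.85, 2.54, 2.29 and 1.84 after 1 Gy. The groups did not overlap, with a difference of 1.12 (SE 0.36, adjusted p = 0.192), and of 0.66 in the deposited values (adjusted p = 0.0829). Pdk4, which turns cells from glucose to fat as fuel, had 2.83, 1.83, 3.45 and 2.65 in sham and 6.21, 4.35, 5.07 and 4.28 after 1 Gy. It was the list's largest difference at 2.28 (SE 0.74, adjusted p = 0.193), again without overlap, and 1.65 in the deposited values (adjusted p = 0.0864). Tsc22d3, the glucocorticoid-induced leucine zipper, had 3.29, 1.24, 2.96 and 3.35 in sham and 4.37, 3.40, 3.59 and 3.40 after 1 Gy. M001, M004 and M005 came close to the lowest irradiated mice, and M002 was far below; the difference was 0.98 (adjusted p = 0.316), or 0.49 without M002. In the deposited values Tsc22d3 rose by 1.23 (adjusted p = 0.00779), with an adjusted p of 0.0982 without M002.

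The genes of the circadian clock differed mainly in the deposited values. Of 14 genes, 13 were tested, with a median of 0.24 in the scanner values, 0.39 with the scanner as a block and 0.68 in the deposited values. Without M002 the median was 0.06 in the scanner values and 0.47 in the deposited ones. With all 8 arrays, 8 deposited differences were above 0 without overlap and 1, that of Arntl, below 0, against 5.67% and 5.09% of all genes, and Hlf and Per1 were called higher, against 0.623%. Per1, a repressor of the clock that light and glucocorticoids induce and a member of both lists, had deposited values of 0.24, 0.06, 0.09 and 0.49 in sham and 1.33, 1.18, 1.27 and 1.41 after 1 Gy. Per1 rose by 1.08 there (adjusted p = 0.0259, and 0.124 without M002). In the scanner values Per1 had 1.00, 0.07, 1.11 and 1.44 in sham and 1.34, 1.16, 1.13 and 1.61 after 1 Gy, where M002 alone was low and the groups overlapped (difference 0.40, adjusted p = 0.657, and 0.12 without M002).

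Hlf, an output factor of the clock, rose by 1.31 in the deposited values (adjusted p = 0.00142, and 0.0356 without M002) and differed by 0.62 in the scanner values (adjusted p = 0.432), or by 0.23 without M002. Nr1d2, a nuclear receptor that represses Arntl, had 1.24, 0.26, 1.21 and 1.17 in sham and 1.68, 1.95, 1.93 and 1.28 after 1 Gy in the scanner values. It did not overlap in either set, with differences of 0.74 (adjusted p = 0.249) and 0.93 (deposited, adjusted p = 0.00349). Arntl, the activator that drives the clock, differed by -0.55 (adjusted p = 0.33) and -0.59 (deposited, adjusted p = 0.0265, and 0.201 without M002). For Dbp, the difference was -0.01 (-0.54 without M002) in the scanner values and 0.79 in the deposited ones (adjusted p = 0.0311, and 0.264 without M002). Sham mouse M002 had a mean over the clock genes of -0.06, where the other sham mice had 0.93 to 1.07 and the irradiated mice 0.89 to 1.06. The hour of day of each biopsy is not given in the sources used here, and its part in these differences was not tested.

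The immediate early genes, which stimuli and wounding switch on within minutes, had a median below 0 in the scanner values only. The 17 genes had a median of -0.44 (-0.65 without M002), and of -0.30 with the scanner as a block, but of 0.05 in the deposited values, so that their direction depended on the set of values. Egr1 had 1.76, -0.28, 0.76 and -0.30 in sham and -0.46, -2.11, -1.75 and -0.88 after 1 Gy. The groups were just apart, with a difference of -1.79 (SE 0.63, adjusted p = 0.225), and of -0.72 in the deposited values (adjusted p = 0.406). Fos, Zfp36 and Ier2 differed by -1.72, -1.12 and -0.73 (adjusted p = 0.259 to 0.337). With array weights, whose estimation did not converge, 7 of the 17 were called lower and 0 higher, against 2.54% and 4.7% of all genes.

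Interferon response genes had a median of 0.64 over 9 genes in the scanner values, 0.39 with the scanner as a block and -0.10 in the deposited values. The median was -0.29 on scanner 1 and 0.84 on scanner 2, so that it changed direction with the scanner. Rsad2, an antiviral enzyme, had -1.2, -1.47, -1.09 and -1.39 in sham and -0.83, 0.19, 0.51 and -1.23 after 1 Gy, with M007 and M009 high and M010 in the sham range (difference 0.95, adjusted p = 0.32). Lists of inflammation, IL-6 family signalling, heat shock and oxidative stress genes had medians of 0.00, 0.09, 0.09 and 0.13. The study's own lists were chosen on these samples. Their medians were -0.27 for the 16 tested genes of the GP6 pathway, the collagen receptor pathway of platelets, -0.24 for the 8 of the intrinsic prothrombin pathway, and 0.12 for the 9 blood genes. With the scanner as a block they were 0.07, 0.11 and -0.04, and in the deposited values -0.09, 0.37 and 0.30, so none of the 3 kept its direction in all fits. The lists span all doses and times of the study, so these medians do not check its results for 1 Gy at h2. Of the listed genes, the study reports only KLK7, KLK8, CALML5, HBA1/HBA2, HBB and HEBP2 as changed there, all upward. Without M002, the median of the GP6 list was -0.67 in the scanner values, and that of the prothrombin list 0.05 in the deposited ones.

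**Figure D4:**
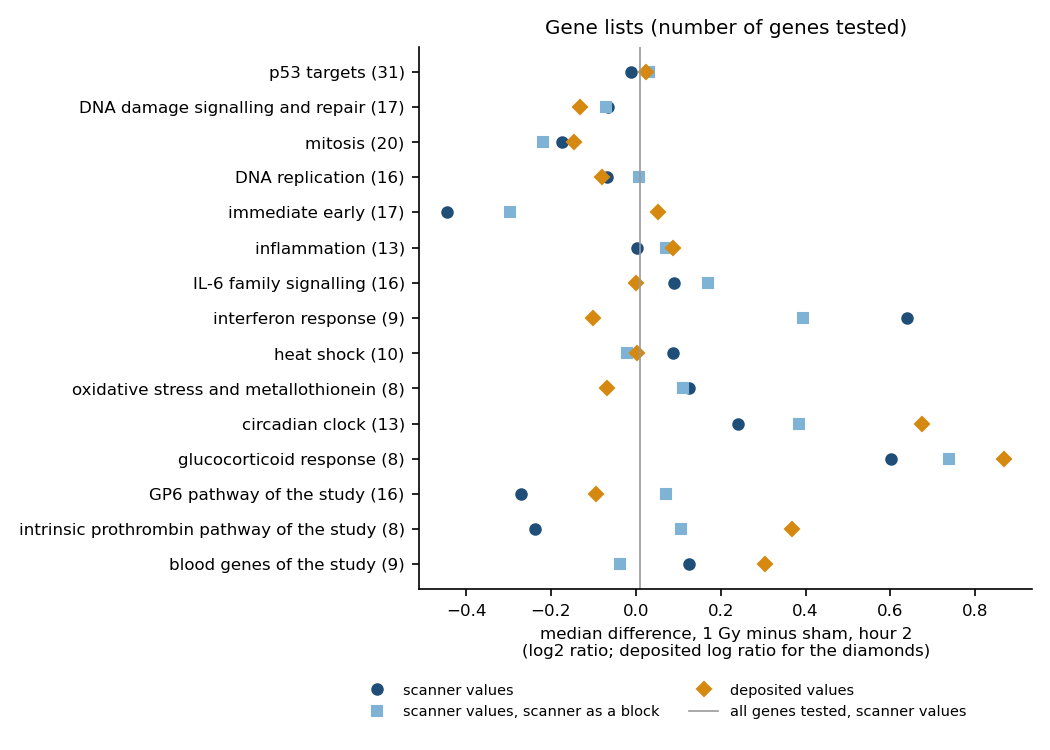
Median difference over the tested genes of 15 lists (number tested in brackets), 1 Gy minus sham at h2, from the scanner values (circles), the scanner values with the scanner as a block (squares) and the deposited values (diamonds), with the median of all genes as a line. Glucocorticoid response and circadian clock genes lay above 0 in all 3, at 0.60, 0.74 and 0.87 and at 0.24, 0.39 and 0.68, while p53 targets lay close to 0. Without M002 the medians in the scanner values were 0.31, 0.06 and 0.13 for these 3 lists.

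The 10 genes with the largest rises in the deposited values included genes of muscle and of the outer epidermis. Trim63, an atrophy ligase of muscle, had scanner values of 1.77, 1.03, 2.89 and 2.93 in sham and 5.52, 5.35, 4.90 and 3.76 after 1 Gy. The groups did not overlap; the difference was 2.73 (SE 0.78, adjusted p = 0.16), and Trim63 rose by 2.20 in the deposited values (adjusted p = 0.0119, and 0.106 without M002). Other muscle genes there were Abra (2.48, adjusted p = 0.0142), Myoz2 (1.86, adjusted p = 0.0104) and Rbm24 (1.66, adjusted p = 0.0268), and their scanner differences were 2.56, 1.53 and 1.71. Beside them, the 15 markers of skeletal muscle had a median of 0.42 in the scanner values and 0.95 in the deposited ones, with 14 and 15 members above 0. In the scanner values it was 0.19 with the scanner as a block, 0.21 without M009, -0.22 on scanner 1 and 1.04 on scanner 2, so that its direction depended on the scanner. Their mean was 5.31 to 6.20 in sham and 5.79 to 6.84 after 1 Gy, and their part in these rises was not tested.

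Hrnr, hornerin of the cornified layer, had 4.67, 2.78, 4.22 and 4.56 in sham and 5.96, 6.70, 6.61 and 5.10 after 1 Gy. The groups did not overlap, with a difference of 2.03 (SE 0.70, adjusted p = 0.213), and Hrnr rose by 2.21 in the deposited values (adjusted p = 0.00787). Csta1 and Cstdc5, protease inhibitors of the stefin family, rose there by 1.75 and 1.74 (adjusted p = 0.0263 and 0.0438). The adhesion gene Chl1 rose by 1.69 (adjusted p = 0.00435). None of Abra, Myoz2, Rbm24, Csta1, Cstdc5 and Chl1 was still called without M002 (adjusted p = 0.0527 to 0.177). Beside them, the 19 markers of cornified epidermis had a median of 0.34 in the scanner values, -0.06 with the scanner as a block and 0.84 in the deposited values, where 8 were higher without overlap, against 5.67% of all genes. Without M002 the median was 0.20 in the scanner values, and without M009 it was 0.08 there and 0.56 in the deposited values. Their deposited mean was 4.03 to 4.48 in sham and 4.54 to 5.51 after 1 Gy, and their part in these rises was not tested. Without M002, the deposited adjusted p of Hrnr was 0.0854. Values of genes with near-identical copies, such as Csta1, Cstdc5 and the Krtap genes, are uncertain. Mup6, of the urinary proteins, differed by 2.90 and Hbb-bt, a beta globin, by 0.47 in the scanner values, against 1.89 and 1.66 in the deposited ones. With the scanner as a block, Hbb-bt differed by -0.21 in the scanner values, so that its direction depended on the fit. Neither was still called in the deposited values without M002 (adjusted p = 0.0837 and 0.177).

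In all, 19 genes were called higher and 10 lower in the deposited values with the same direction and an unadjusted p under 0.05 in both scanner fits. Without M002, 5 of the 19 and none of the 10 were still called in the deposited values, and without M009, 5 and 1. The 10 lower genes were Galnt14, Cybrd1, Fgf5, Gprc5d, Tm4sf1 and 5 Krtap genes. Beside Slc25a33, Lmod2, Pde4d, Trim63, Hrnr and Mup6, the 10 of the 19 with the smallest unadjusted p held Lyve1, the hyaluronan receptor of lymphatic vessels (1.39 in the scanner values, 1.02 deposited), Yipf7 (2.09 and 1.46), Cep85l (1.31 and 1.15) and Pacsin3 (1.58 and 1.06). None of these last 4 overlapped between the groups in the scanner values. Lyve1 had 1.5, 1.53, 1.5 and 1.67 in sham and 3.16, 3.33, 3.23 and 2.03 after 1 Gy, with M010 closest to sham. All 12 markers of endothelium lay above 0 in the scanner values, and 11 did in the deposited ones. Their median was 0.53, with 0.28 with the scanner as a block and 0.48 in the deposited values. It was 0.16 on scanner 1 and 0.86 on scanner 2. Their mean was 2.12 to 2.43 in sham and 2.44 to 3.11 after 1 Gy, with M004 (2.432) just below M010 (2.437). The deposited means overlapped, at 2.23 to 2.83 in sham and 2.63 to 3.48 after 1 Gy. The 10 markers of adipocytes had a median of 0.98, with a mean of 4.49 to 5.28 in sham and 4.58 to 6.79 after 1 Gy, but of 0.20 with the scanner as a block. The median was 0.61 without M009. It was -0.12 on scanner 1 and 0.70 on scanner 2, so that its direction depended on the scanner.

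The genes with lower deposited values after 1 Gy included several of hair keratin-associated proteins. In the scanner values, Krtap31-1 had 0.26, 6.36, 0.33 and 0.33 in sham and 0.04, 0.02, -0.03 and 0.29 after 1 Gy. Sham mouse M002 was far above the other 7, which lay close together. Krtap7-1, the hair follicle regulator Fgf5 and the receptor Gprc5d of hard-keratin cells showed the same, with 7.03, 5.22 and 5.20 in M002 and at most 0.47 in the 7 others. Their deposited falls were 1.28 for Krtap31-1, 1.39 for Krtap7-1, 1.09 for Fgf5 and 1.1 for Gprc5d, written as sizes on the deposited scale. Fgf5 was well above background on 2 sham arrays and 1 irradiated array, Krtap7-1 on 2 and 2, Gprc5d on 2 and 3, and Krtap31-1 on 3 and 3, which limits these sizes. M002 was again the highest in the deposited values, but the groups did not overlap for these 4 genes, and the other sham mice also lay above the irradiated mice. Without M002, their deposited differences were -0.71, -0.78, -0.69 and -0.64 (adjusted p = 0.407, 0.349, 0.196 and 0.414), and none was called. Krtap14, Krtap15, Krtap19-2 and Krtap24-1 were not well above background on any irradiated array. Their sham mean was at least 3.31-fold, 2.59-fold, 2.33-fold and 2.12-fold higher, a bound from normalized signals that is open to dye bias, with adjusted p of 0.346, 0.289, 0.327 and 0.242 in the scanner values. Of the sham arrays, 1, 1, 2 and 1 measured them. Without M002, the scanner differences of these 4 were -0.06, -0.11, -0.61 and -0.02, so that the bounds rest on that mouse, and the deposited differences were -1.25, -0.94, -0.95 and -0.77 (adjusted p = 0.2 to 0.354). Tm4sf1, a membrane protein, also fell in the deposited values (-1.11, adjusted p = 0.00511), and in the scanner values it had 1.81 in M002 and at most -1.12 in the 7 others. Without M002, Tm4sf1 differed by 0.07 in the scanner values and by -0.82 in the deposited ones (adjusted p = 0.0947). Scd2, a fatty acid desaturase, fell by 1.07 there (adjusted p = 0.00349), and by 0.96 without M002 (adjusted p = 0.0441). In the scanner values Scd2 had -2.49, -1.46, -2.59 and -2.61 in sham and -3.59, -2.91, -2.90 and -2.48 after 1 Gy, where M010 lay within the sham range (difference -0.68, adjusted p = 0.303).

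All 16 tested markers of the growing hair follicle lay below 0 after 1 Gy, with a median of -1.09, and 6 were lower at an unadjusted p under 0.05, against 7.4% of all genes. Their mean was 6.15 in sham mouse M002, 0.16 to 0.44 in the other 3 sham mice and 0.22 to 0.92 in the irradiated mice. Krt71, a keratin of the inner root sheath, had 0.90, 7.53, 1.1 and 0.54 in sham and 3.96, 0.77, 1.23 and 0.61 after 1 Gy, with M006 as the second highest. Without M002 the median of the 16 was 0.06 in the scanner values and -0.46 in the deposited ones. On scanner 1, which leaves M002 out, it was -0.08, and on scanner 2, where M002 was the sole sham mouse, -5.78. M002 had the highest mean of these genes among all 82 arrays, of which 7 lay above 3 and 69 below 1. In later biopsies of M002 it was 0.17 on day 4, 0.53 on day 7, 1.51 on day 21 and 0.99 on day 28.

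**Figure D5:**
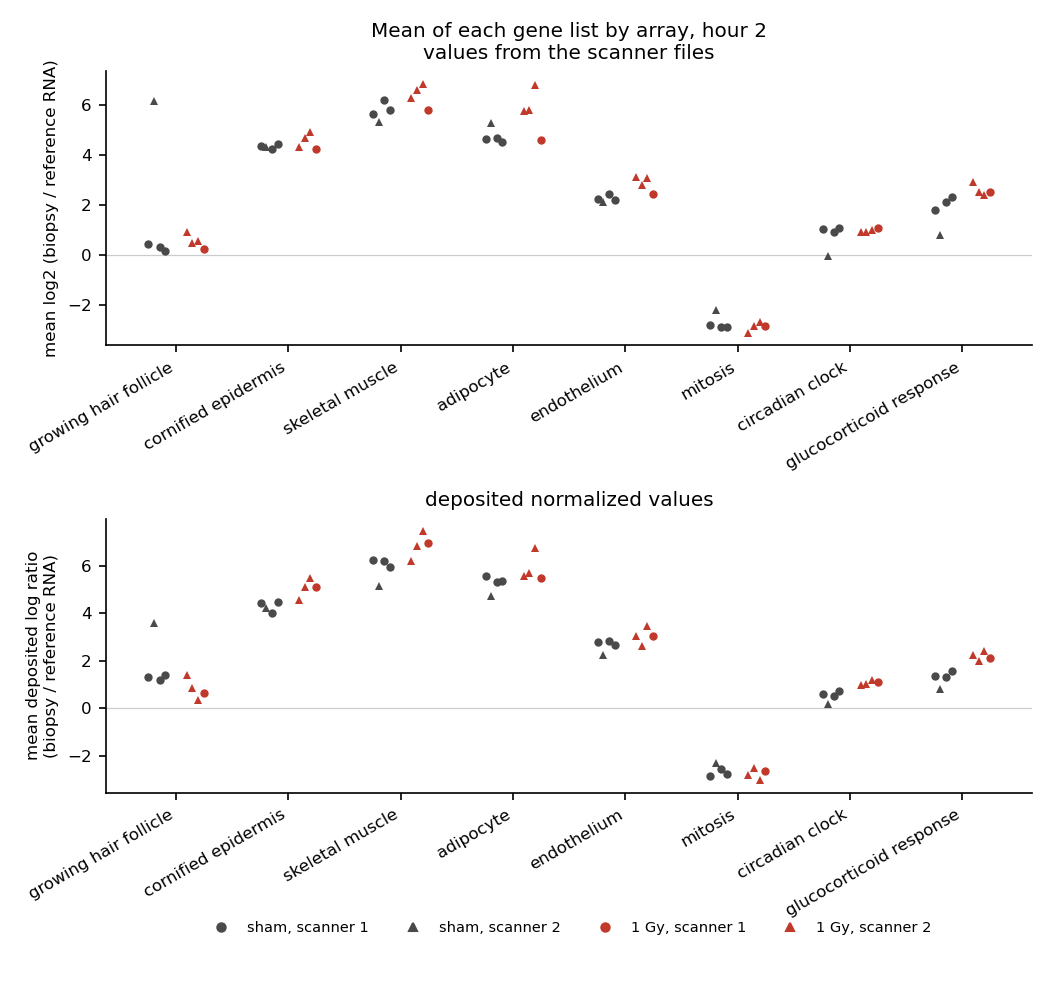
Mean over 8 gene lists by mouse at h2 (grey for sham, red for 1 Gy, circles for scanner 1, triangles for scanner 2), as log2 ratio of biopsy over reference RNA from the scanner files (top) and as deposited log ratio (bottom). Sham mouse M002 lay at 6.15 for the growing hair follicle, where the other 7 lay between 0.16 and 0.92, and at -0.06 for the clock genes, where the others lay between 0.89 and 1.07.

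The other doses at h2 were set against 1 Gy directly, so that the sham means do not enter the differences, though the sham arrays share the model's estimate of the spread. No probe differed between 3 Gy (5 arrays) and 1 Gy past both thresholds by limma, in the scanner values, with the scanner as a block or in the deposited values, and at an unadjusted p under 0.05 and 2-fold 16 were higher and 7 lower in the scanner values, but 1 higher and 46 lower in the deposited ones. For 6 Gy (4 arrays) there were 0 in the scanner values, 3 higher and 0 lower with the scanner as a block, and 7 higher and 3 lower in the deposited values. For 20 Gy (4 arrays), 1985 were higher and 2271 lower than at 1 Gy, and 234 and 1187 in the deposited values. All 4 arrays of 20 Gy were on scanner 1, as was 1 of 4 at 1 Gy.

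Levels of the leading genes by dose followed several patterns. Slc25a33 had a mean of -1.21 (SD 0.07, n = 4) in sham, 0.41 (SD 0.41, n = 4) at 1 Gy, -0.46 (SD 0.41, n = 5) at 3 Gy, -0.37 (SD 0.51, n = 4) at 6 Gy and -0.95 (SD 0.14, n = 4) at 20 Gy. It was highest at 1 Gy, while 3 and 6 Gy did not differ beyond their spread. Enc1 was at 0.35 (SD 0.69) in sham and at -1.05, -0.90, -0.56 and -0.99 at 1, 3, 6 and 20 Gy, so that all 4 irradiated groups lay below sham. The 4 groups are set against the same sham mean, in which M002 was high (1.30). Enc1 was also named for its fall against these sham mice, so the other doses add no separate support. Lmod2 was at 0.66 in sham, 2.48 (SD 0.82) at 1 Gy, 1.68 at 3 Gy, 1.63 at 6 Gy and 0.09 at 20 Gy. Ccng1 was at 0.35 in sham, 1.87 (SD 0.67) at 1 Gy, 1.32 at 3 Gy, 1.75 at 6 Gy and -0.53 at 20 Gy, with the 3 lower doses within their spread. For Trp53inp1 and Sesn1, 20 Gy minus 1 Gy was -1.92 and -1.27 in the scanner values but 0.93 and 0.92 in the deposited values, so that the 2 sets gave opposite directions for these p53 targets.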

How the data were processed

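Total RNA of skin biopsies (Cy5) and a universal mouse reference RNA (Cy3) were hybridized by the authors to Agilent 2-colour arrays, and 8 of the 82 arrays form the comparison. The authors scanned the arrays and extracted them with Feature Extraction 11.0.1.1 (scanner 1) or 10.10.1.1 (scanner 2), as the deposited file headers state. They deposited, per spot, the median intensity of signal and local background in both channels, not normalized, and the software's log10 ratio of Cy5 over Cy3. The authors also deposited normalized values, here treated as log2 ratios from their spread, by steps not given in the sources used here.

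The analysis ran in R 4.3.3 (packages limma 3.58.1, statmod 1.5.0, and data.table at version 1.17.8). Median signals stood in for mean signals. Normexp, offset 50, served as background correction. Spots more than 50 below their local background in a channel (398 values on 82 arrays) were left out first, since the fit on all spots inflated the corrected intensities of 30 arrays; this departs from the plan and was decided after the results with all spots had been seen. Loess within each array followed. Control spots (1639 of 45018) and outliers called by the software (25056 values, 0.704%) were left out, and spots of a probe were averaged to 41174 probes. Of 41267 deposited entries, these 41174 were matched by name.

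Tested were the 30293 probes that the Cy5 flags put well above background in 50% or more of the arrays of any 1 group. All 82 arrays entered 1 model with a mean per dose and time point (lmFit, eBayes, Benjamini-Hochberg), and a second one with the scanner as a block. A call needs an adjusted p under 0.05 and a 2-fold change. The same mice recur on later days, which the model does not use. Each array at h2 is a separate mouse, and 4 per group limit the precision. Symbols came from RefSeq (GRCm38.p6) for 27572 probes (67%), and the brightest probe over all arrays stood for a gene (15739). The 2 array designs differed in accession for 8868 probes and in symbol for 19.

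Named genes are the p53 targets past an unadjusted p of 0.05; the 10 higher and 10 lower with the smallest unadjusted p at 2-fold, well above background on 3 arrays of the higher group; the 10 largest deposited rises and falls past both thresholds; and those past the deposited thresholds with the same direction in both scanner fits. Others are members of lists, named as examples after their values were seen. The members and lists were chosen with earlier results of these data known. Scripts were tested on simulated data. Alternatives covered background, normalization, filters, blocks, array weights and each array left out.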

Additional observations from a re-analysis of the deposited data

Results flagged for a closer look

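Within each group of 4 mice, the highest or lowest scanner value was compared with its nearest neighbour, for the means of the 32 gene lists and for 69 genes (those named by rule and those given as examples with a value in every mouse). Values whose gap, as a share of the whole range of the group, passed Dixon's limit for 4 values are given here. Chance alone marks about 1 in 20 groups, a rate that does not hold for the genes, since they were picked from these same values. The value of sham mouse M002 lay far from the other sham mice for the mean log2 ratio of the growing hair follicle markers (6.15), the mitosis genes (-2.19), the circadian clock genes (-0.059), the study's intrinsic prothrombin genes (2.46) and the T cell markers (-0.34). It did so too for the hair genes Krtap14 (7.66), Krtap15 (6.55), Krtap19-2 (4.46), Krtap7-1 (7.03), Krtap31-1 (6.36), Krtap24-1 (5.48), Krt71 (7.53), Gprc5d (5.20) and Fgf5 (5.22). Further genes for which M002 stood apart were Galnt14 (4.12), H2bu2 (3.62), Mup6 (1.4), Tm4sf1 (1.81), Scd2 (-1.46), Nr1d2 (0.26), Trim59 (0.22) and Phlda3 (0.10). Among the irradiated mice, M006 stood apart for the heat shock genes (0.65) and for Enc1 (-0.65), M007 for the markers of dendritic and Langerhans cells (1.85), and M010 for Dnajb4 (-0.0548), Krtap14 (0.24), Fgf5 (0.30) and Lyve1 (2.03). Krtap14 was well above background on no irradiated array and Fgf5 on 1 of 4, so these gaps lie between dim values. M002 accounts for 22 of the 29 values, a share partly set by naming genes from these same arrays.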

How the results depend on the processing

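Counts below are probes higher and lower after 1 Gy. In the scanner values (4 and 2), Aquantile normalization and a robust, trended fit also gave 4 and 2, the mouse as a random block 4 and 1, and no background correction 4 and 1. Counts of 0 and 0 came with the scanner as a block, the scan day as a block, the 8 arrays alone, median centring in place of loess, the software's log ratio, normexp fitted on all spots, no filter on dim probes, and without both M002 and M009, and 1 and 0 with a filter for probes well above background on all 8 arrays. Median centring moved the median of all genes to -0.29 and the software's ratio to -0.13. Larger counts came with the slide as a random block (9 and 39) or a fixed one (123 and 246), the 21 arrays of h2 (151 and 18), scanner 1 alone (19 and 22), scanner 2 alone (456 and 929), and array weights (1271 and 707; the weights of M002 and M010 were 0.149 and 0.321, and their estimation stopped before converging). Leaving out 1 array gave 0 to 233 higher and 0 to 133 lower. The deposited values gave 131 and 16, and 81 and 10 with the scanner as a block. With the scanner as a block (0 and 0), the slide as a random block gave 2 and 17, the 8 arrays 0 and 1, the arrays of h2 34 and 3, array weights 5 and 1, and leaving out 1 array 0 to 3 and 0 to 4. In the deposited values, scanner 1 alone gave 137 and 43, scanner 2 alone 123 and 259, the slide as a fixed block 113 and 33, the scan day 78 and 11, the 8 arrays 44 and 2, the arrays of h2 241 and 22, probes well above background on all 8 arrays 134 and 4, array weights 143 and 5, leaving out both M002 and M009 0 and 1, and leaving out 1 array 20 to 180 and 1 to 37. For other doses against 1 Gy, 3 Gy gave 0 in each fit and 0 to 7 with 1 array left out; 6 Gy gave 0, with the block 3, in the deposited values 10, and 0 to 7 with 1 array left out; 20 Gy gave 1985 higher and 2271 lower, with the block 2423 and 2133, and in the deposited values 1421 in all. Normexp on all spots was the planned setting. Leaving out spots far below their background before normexp, and the fit without M002 and M009, were chosen after seeing the data. The causes of these moves were not tested, other than that fewer arrays or probes enter some fits. No paired analysis was possible because the replicate numbers only follow the order of the samples and mark no shared animal or day between groups. With 4 mice a group, 3 of 4 sham arrays on 1 scanner and 3 of 4 irradiated arrays on the other, dose and scanner can be told apart within these 8 arrays only through M002 and M010.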
